A study of Mus musculus with 24 samples.

Results

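Lipolysis is the stepwise release of fatty acids and glycerol from stored triglyceride, and 8 genes of that process were followed here in mouse inguinal white adipose tissue, a subcutaneous fat depot. The genes are the lipases Pnpla2, Pnpla3, Lipe, Mgll and Ces1d, the lipase coactivator Abhd5, the lipase inhibitor G0s2 and the phosphodiesterase Pde3b. They were found by symbol, and no measured value enters that rule, but the list was chosen with earlier results of these data known. They are 8 of the 17541 genes in the count table. All 8 passed the filter on low counts. RNA came from C57BL/6J WT mice, all on a high-fat diet, and was sequenced from the 3′ ends of transcripts with the QuantSeq kit. The labels give each of the 24 libraries an ID of its own, taken here as a separate mouse. Where that does not hold, the p-values measure only the spread between these samples. Young CTRL (16 weeks of age, n = 7) is the reference of the series, and Young BAM15 (16 weeks, n = 6) received BAM15, a mitochondrial uncoupler that lets protons back across the inner mitochondrial membrane. Aged CTRL (92 weeks, n = 6) and Aged BAM15 (92 weeks, BAM15, n = 5) are the older counterparts. CTRL is the control treatment, whose nature the labels do not describe. The sources used here do not give the dose, route or length of treatment, or the sex of the mice.

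In an adipocyte, triglyceride is cut one fatty acid at a time. Adipose triglyceride lipase (ATGL, encoded by Pnpla2) removes the first chain, hormone-sensitive lipase (Lipe) the next, and monoglyceride lipase (Mgll) the last. ATGL needs the coactivator ABHD5, also called CGI-58, which the coat protein perilipin 1 (Plin1) holds back at rest, and it is inhibited by G0S2. Catecholamines start the process through beta-adrenergic receptors and cAMP, while insulin restrains it in part through phosphodiesterase 3B (Pde3b), which degrades cAMP. PNPLA3 is a close relative of ATGL that also binds ABHD5 and whose gene is known to follow feeding and lipid synthesis. Ces1d encodes a carboxylesterase, also called triacylglycerol hydrolase.

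The promoter of Pnpla3 is shown beside that of its relative Pnpla2 because Pnpla3 was the one gene of the 8 with a called change, described further on. Both stretches are the 250 bases before the RefSeq transcription start on the plus strand in GRCm38.p6, at chr15:84167566-84167815 for Pnpla3 and chr7:141454938-141455187 for Pnpla2. Capitals mark matches, on either strand, to 6 motifs that were searched: the E-box CACGTG, the cAMP response element TGACGTCA, the nuclear receptor site AGGTCA, the CCAAT box CCAAT, the GC box GGGCGG and the TATA box TATAAA.
Pnpla3: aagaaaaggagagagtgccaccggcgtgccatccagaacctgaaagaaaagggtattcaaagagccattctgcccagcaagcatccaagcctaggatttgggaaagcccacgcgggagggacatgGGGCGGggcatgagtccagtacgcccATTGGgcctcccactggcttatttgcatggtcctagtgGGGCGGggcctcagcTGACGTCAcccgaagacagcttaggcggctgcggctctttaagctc
Pnpla2: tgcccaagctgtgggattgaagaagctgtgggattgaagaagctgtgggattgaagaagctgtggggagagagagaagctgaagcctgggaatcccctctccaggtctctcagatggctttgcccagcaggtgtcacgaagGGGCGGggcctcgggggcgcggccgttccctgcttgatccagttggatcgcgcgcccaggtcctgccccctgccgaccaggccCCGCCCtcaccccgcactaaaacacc
The Pnpla3 stretch holds the cAMP response element with its first base 46 bases before the start, a CCAAT box on the minus strand at 99, and GC boxes at 125 and 61. The Pnpla2 stretch holds GC boxes at 109 and, on the minus strand, at 26. None of the matches overlap. Over 32851 RefSeq promoters of the same length, the cAMP response element occurred in 1.55%, the CCAAT box in 33.8%, the GC box in 32.7%, the E-box in 6.02%, the nuclear receptor site in 14% and the TATA box in 12.4%. A match describes letters only. RefSeq promoter entries were matched for 6 of the 8 genes, all except Ces1d and Pde3b.

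In GRCm38 with the GENCODE vM21 annotation, Pnpla3 lies at chr15:84167837-84187236 and Pnpla2 at chr7:141455198-141460743, both on the plus strand. Lipe lies at chr7:25379527-25398710 on the minus strand, Pde3b at chr7:114415281-114539251 on the plus strand and Mgll at chr6:88724412-88828360 on the plus strand. Abhd5 lies at chr9:122351608-122381524 on the plus strand, G0s2 at chr1:193272161-193273217 on the minus strand and Ces1d at chr8:93166068-93197838 on the minus strand. All 8 are protein-coding. Some reads cannot be placed on 1 gene with certainty, because the sources used here do not give the strand setting of the counting. Exons of Lipe share 918 bases with the antisense gene 4732471J01Rik, those of Abhd5 share 950 with the antisense gene A730085K08Rik, and those of Mgll share 167 with the antisense gene Gm26588. Pnpla3 exons share 105 bases with Gm49513 on the same strand. Ces1d sits in a row of 8 related genes, Ces1a to Ces1h, and reads from near-identical stretches may have been split among them, so its counts are uncertain in that respect.

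Library totals ran from 8.62 to 21.9 M counts, with 11.5 to 21.9 M in Young CTRL, 8.62 to 15.2 M in Young BAM15, 12.1 to 21.2 M in Aged CTRL and 9.34 to 20.7 M in Aged BAM15. The labelled tissue matched its markers: all 14 adipocyte markers were kept by the filter, and their summed level was 36400 to 117493 CPM over the 24 libraries, with ranges that overlapped between all groups and 0 of 14 called in any comparison. CPM is the count of a gene per M counts of the library after normalisation. Because reads come from the 3′ end, gene length does not enter the value, and levels are compared here between libraries and not between genes. Markers of other tissue varied between single mice: summed B cell markers reached 417 CPM in Young CTRL, 1479 in Young BAM15, 283 in Aged CTRL and 386 in Aged BAM15, against lowest values of 6.66 to 13. Summed skeletal muscle markers were highest in each group in Young CTRL 7 (65504 CPM), Young BAM15 3 (73953), Aged CTRL 1 (25806) and Aged BAM15 1 (11716), against group medians of 59 to 991, and keratinocyte markers 2228 CPM in Young CTRL 1. The share of mt-Rnr2, a ribosomal RNA of mitochondria, was low in 4 libraries, which were Aged BAM15 2 and 5, Aged CTRL 2 and Young CTRL 4. There it made up 0.121 to 0.257% of counts against 0.722 to 2.26% in the other 20, and mitochondrial transcripts together 12 to 21.4% against 4.82 to 9.27%. They are called the low mt-Rnr2 libraries, and results that rest on them are given with and without them. In tissue RNA, fewer cells of a type and less RNA per cell cannot be told apart.

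Pnpla3 was lower in old than in young mice, in control and in BAM15-treated animals alike. Its level in Young CTRL ran from 95.8 to 242 CPM with a median of 128, and in Aged CTRL from 27.4 to 94.7 with a median of 60.4. No Aged CTRL library reached the lowest Young CTRL library, although the gap between the groups was narrow. The means were 148 ± 54.2 CPM (SD, n = 7) and 60.8 ± 26.5 (SD, n = 6), and the fitted change was -1.29 ± 0.26 (log2, SE), which is 2.44-fold lower, with an adjusted p of 0.0317 in edgeR's quasi-likelihood test with Benjamini-Hochberg adjustment over 15939 genes. The threshold for a call was an adjusted p of 0.05. In this comparison 33 genes, or 0.207% of those tested, were called, and 9 of them, or 0.0565%, were lower. The groups did not overlap for 0.489% of all genes, with Aged CTRL lower for 0.157%.

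In treated mice, Young BAM15 libraries ran from 156 to 250 CPM of Pnpla3 with a median of 170. The 5 Aged BAM15 libraries held 76.3, 88.1, 62.3, 60.6 and 73.2 CPM. The 2 groups were well apart, and the spread within each was smaller than in the controls. The means were 186 ± 36 CPM (SD, n = 6) and 72.1 ± 11.2 (SD, n = 5), and the change was -1.37 ± 0.29 (log2, SE), or 2.58-fold lower, with an adjusted p of 0.0315 in the same edgeR test. Here 68 genes, or 0.427%, were called, of which 9, or 0.0565%, were lower, and the groups did not overlap for 2.06% of all genes, with Aged BAM15 lower for 0.885%. This comparison shares no mouse with the one in controls. The 2 age differences of Pnpla3 differed from each other by -0.08 ± 0.38 (log2, SE, adjusted p = 0.982), an interval of ±2 SE from -0.84 to 0.68.

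The size of the Pnpla3 difference was steadier than its call. In controls, the call was lost without Young CTRL 2 (-1.13, adjusted p = 0.0725), 5 (-1.20, 0.0762) or 6 (-1.30, 0.0521), and without Aged CTRL 1 (-1.14, 0.0827), 2 (-1.18, 0.0686), 3 (-1.31, 0.0695) or 5 (-1.26, 0.0898), while it was kept in the other 6 of the 13 fits that left out 1 library. In treated mice it was lost in 9 of 11 such fits, without Young BAM15 1 (-1.23, adjusted p = 0.0685), 2 (-1.40, 0.0586), 4 (-1.33, 0.0692), 5 (-1.40, 0.0714) or 6 (-1.38, 0.074), and without Aged BAM15 2 (-1.42, 0.0651), 3 (-1.32, 0.0741), 4 (-1.31, 0.052) or 5 (-1.37, 0.115). Without the low mt-Rnr2 libraries the change was -1.26 ± 0.26 (adjusted p = 0.032) in controls and -1.47 ± 0.32 (adjusted p = 0.0678, call lost) in treated mice. DESeq2 gave adjusted p of 0.000528 and 0.000697 for the 2 comparisons, and limma-voom with sample quality weights 0.00339 and 0.00186.

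The fitted changes of marker lists of other cells with age went in both directions, with 0 genes called in any list. Some of them rest on single libraries. B cell markers had a median log2 change of -1.06 in controls (2 of 10 positive) and -1.99 in treated mice (0 of 10 positive), T cell markers -1.47 and -1.38 (0 of 8 positive in each), and brown and beige fat markers -1.42 (0 of 6 positive) and -0.79 (1 of 6). Median summed B cell levels were 9.48 CPM in Young CTRL, where replicates 1 and 5 held 389 and 417, and 20.4 in Aged CTRL. For T cells these medians were 11.1 and 12.5 CPM. In treated mice the young and old medians were 477 and 201 CPM for B cells and 186 and 56 for T cells. Skeletal muscle markers had medians of -0.87 (0 of 10 positive) and -1.65 (1 of 10). Their median summed level per group went the other way. It was 312 CPM in Young CTRL and 545 in Aged CTRL, and 59 in Young BAM15 and 991 in Aged BAM15. Young CTRL 7 held 65504 CPM and Young BAM15 3 held 73953. Macrophage markers had 0.59 in controls (12 of 12 positive) and -0.04 in treated mice (5 of 12), adipocyte markers 0.10 and 0.36, and the 3 mammary markers tested -0.99 and 2.04. Mammary markers summed to 124 CPM in Young CTRL 1 and 16 in Aged BAM15 1, against group medians of 0.68 to 1.6. Keratinocyte markers had -3.46 in controls (0 of 5 positive) and -0.11 in treated mice (2 of 5). Their median summed level was 20.3 CPM in Young CTRL and 17 in Aged CTRL, while Young CTRL 1 held 2228 and Young CTRL 7 held 377. Endothelial markers had -0.02 (3 of 6 positive) and -0.58 (1 of 6). Aged CTRL 1, the Aged CTRL library with the highest muscle markers, held the lowest Pnpla3 value. With the B cell marker level of each library as a covariate the Pnpla3 change was -1.31 ± 0.26 (adjusted p = 0.0212) in controls and -1.48 ± 0.29 (adjusted p = 0.0307) in treated mice. With the adipocyte marker level as a covariate it was -1.25 ± 0.26 (adjusted p = 0.0214) and -1.45 ± 0.29 (adjusted p = 0.0299), and with that of skeletal muscle -1.34 ± 0.26 (adjusted p = 0.0228) and -1.23 ± 0.29 (adjusted p = 0.0489). The part of T cells, macrophages, brown or beige fat cells, keratinocytes and endothelial cells in the result was not tested.

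BAM15 did not give a called change of Pnpla3 at either age. The change was 0.32 ± 0.26 (log2, SE, adjusted p = 0.616) in young mice and 0.25 ± 0.28 (adjusted p = 0.844) in old mice, and the latter was 0.02 ± 0.31 without the low mt-Rnr2 libraries. The order of the 4 group means was Aged CTRL, Aged BAM15, Young CTRL, Young BAM15, and within each age the BAM15 and CTRL libraries overlapped.

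**Figure D1:**
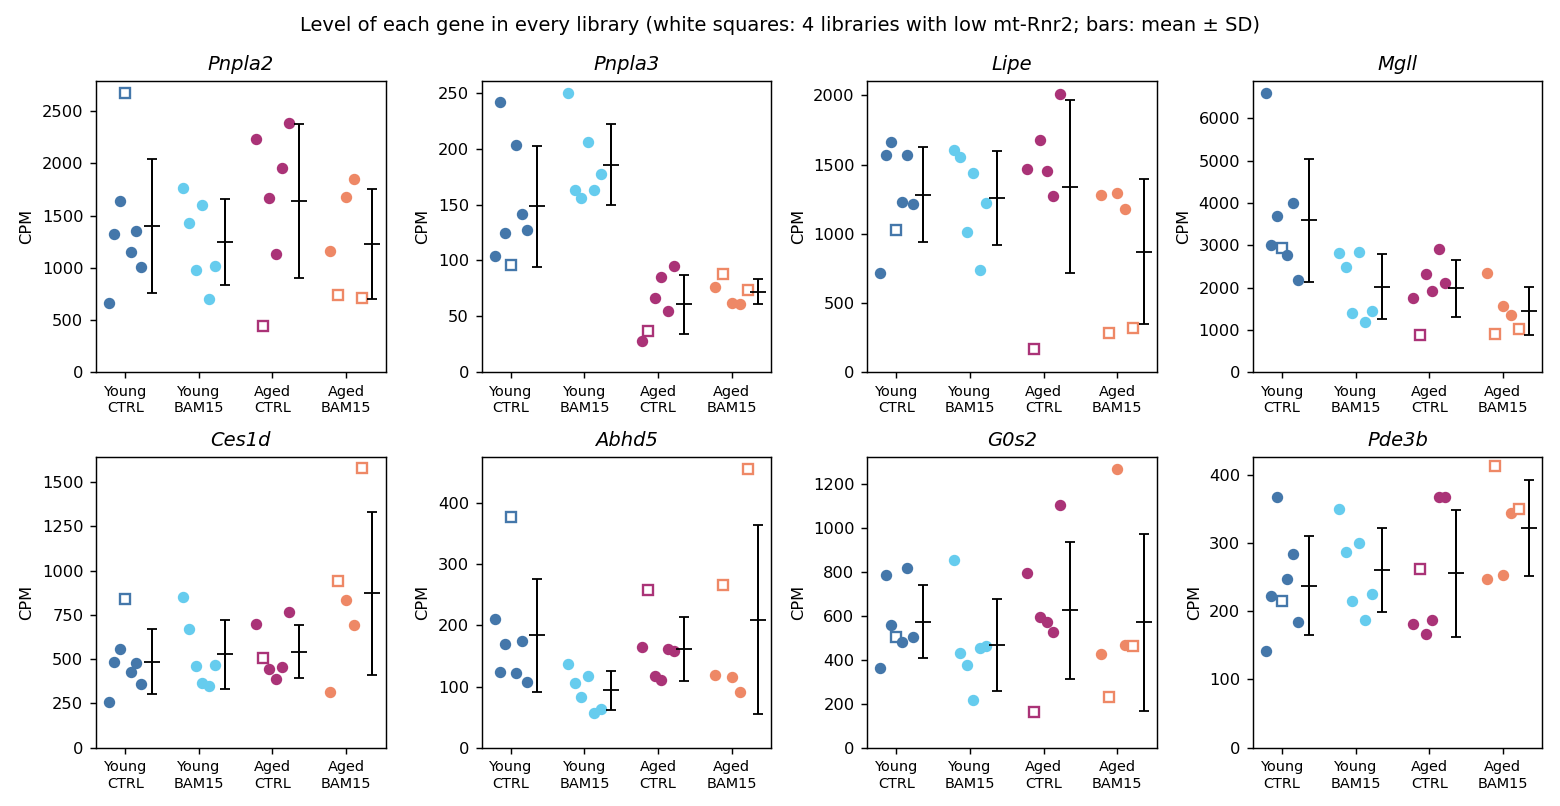
Level of the 8 genes in each of the 24 libraries, in CPM on a linear axis from 0, by group. Points are libraries, white squares are the 4 low mt-Rnr2 libraries, and the bars give the mean ± SD. Pnpla3 is the gene for which the old and young libraries separate under both treatments, and Abhd5 is the gene for which the white squares stand highest.

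Pnpla2, the enzyme of the opening step, did not show a called difference in any comparison. It ran from 661 to 2677 CPM in Young CTRL (mean 1402 ± 641, SD, n = 7), from 695 to 1766 in Young BAM15 (1248 ± 414, n = 6) and from 445 to 2389 in Aged CTRL (1638 ± 736, n = 6). The 5 Aged BAM15 libraries held 1159, 734, 1682, 1850 and 709 CPM (1227 ± 527). Every pair of groups overlapped. The age change was 0.22 ± 0.35 (log2, SE, adjusted p = 0.956) in controls and -0.03 ± 0.38 (adjusted p = 0.98) in treated mice, and the BAM15 change was -0.17 ± 0.35 (adjusted p = 0.889) in young and -0.42 ± 0.39 (adjusted p = 0.795) in old mice. The ±2 SE interval of the age change in controls, -0.48 to 0.93, does not contain the Pnpla3 change of -1.29. Among the low mt-Rnr2 libraries, Young CTRL 4 held the highest Pnpla2 value of its group and Aged CTRL 2 the lowest of its group. Without these libraries the age change in controls was 0.66 ± 0.27 (adjusted p = 0.342), and the changes in treated mice and between the young groups took the other sign at 0.34 ± 0.31 and 0.05 ± 0.26. The BAM15 change in old mice was -0.26 ± 0.33 without them and -0.08 in limma-voom.

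Lipe, hormone-sensitive lipase, also gave no called change. It ran from 715 to 1660 CPM in Young CTRL (mean 1283 ± 342, SD, n = 7), from 736 to 1606 in Young BAM15 (1262 ± 340, n = 6) and from 166 to 2012 in Aged CTRL (1342 ± 629, n = 6). In Aged BAM15 the 5 libraries held 1277, 284, 1297, 1176 and 315 CPM (870 ± 523). The 2 low values of Aged BAM15 and the lowest of Aged CTRL were all low mt-Rnr2 libraries. The largest Lipe change, -0.63 ± 0.45 for Aged BAM15 minus Aged CTRL (log2, SE, adjusted p = 0.712), was -0.33 ± 0.28 without them, and that for Aged BAM15 minus Young BAM15 went from -0.54 ± 0.45 to 0.0059 ± 0.27. In controls the age change was 0.06 ± 0.41 and in young mice the BAM15 change was -0.02 ± 0.41.

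Mgll, which completes triglyceride breakdown by releasing the last fatty acid, was highest in Young CTRL by mean but did not pass the test. Young CTRL ran from 2178 to 6599 CPM with a median of 2996 (mean 3594 ± 1454, SD, n = 7). Young BAM15 ran from 1186 to 2838 (2024 ± 769, n = 6), Aged CTRL from 887 to 2913 (1984 ± 673, n = 6), and the 5 Aged BAM15 libraries held 2344, 910, 1574, 1361 and 1008 CPM (1439 ± 572). All 6 Young BAM15 and all 6 Aged CTRL libraries lay under the Young CTRL median, yet both groups overlapped the Young CTRL range. The change was -0.86 ± 0.31 (log2, SE) with age in controls (adjusted p = 0.351) and -0.83 ± 0.31 with BAM15 in young mice (adjusted p = 0.278). Both comparisons use the same Young CTRL libraries. Young CTRL 1, the library with the keratinocyte markers, held the 6599 CPM, and without it the changes were -0.64 ± 0.30 (adjusted p = 0.679) and -0.61 ± 0.30 (adjusted p = 0.335). Its part in the result beyond these values was not tested. In old mice BAM15 gave -0.46 ± 0.34 (adjusted p = 0.718) and in treated mice age gave -0.49 ± 0.34 (adjusted p = 0.453), which was -0.19 ± 0.35 without the low mt-Rnr2 libraries.

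Ces1d ran from 259 to 842 CPM in Young CTRL (mean 486 ± 184, SD, n = 7), from 348 to 848 in Young BAM15 (528 ± 195, n = 6) and from 390 to 764 in Aged CTRL (543 ± 151, n = 6). The 5 Aged BAM15 libraries held 317, 939, 832, 691 and 1577 CPM (871 ± 459), so the group contained both a value among the lowest and the highest of all 24 libraries. The change for Aged BAM15 was 0.68 ± 0.34 against Aged CTRL (log2, SE, adjusted p = 0.551) and 0.72 ± 0.34 against Young BAM15 (adjusted p = 0.289), and both shrank without the low mt-Rnr2 libraries, to 0.16 ± 0.34 and 0.24 ± 0.32. They were 0.43 and 0.41 in limma-voom. The age change of Ces1d in controls was 0.16 ± 0.31 and the BAM15 change in young mice 0.12 ± 0.31.

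**Figure D2:**
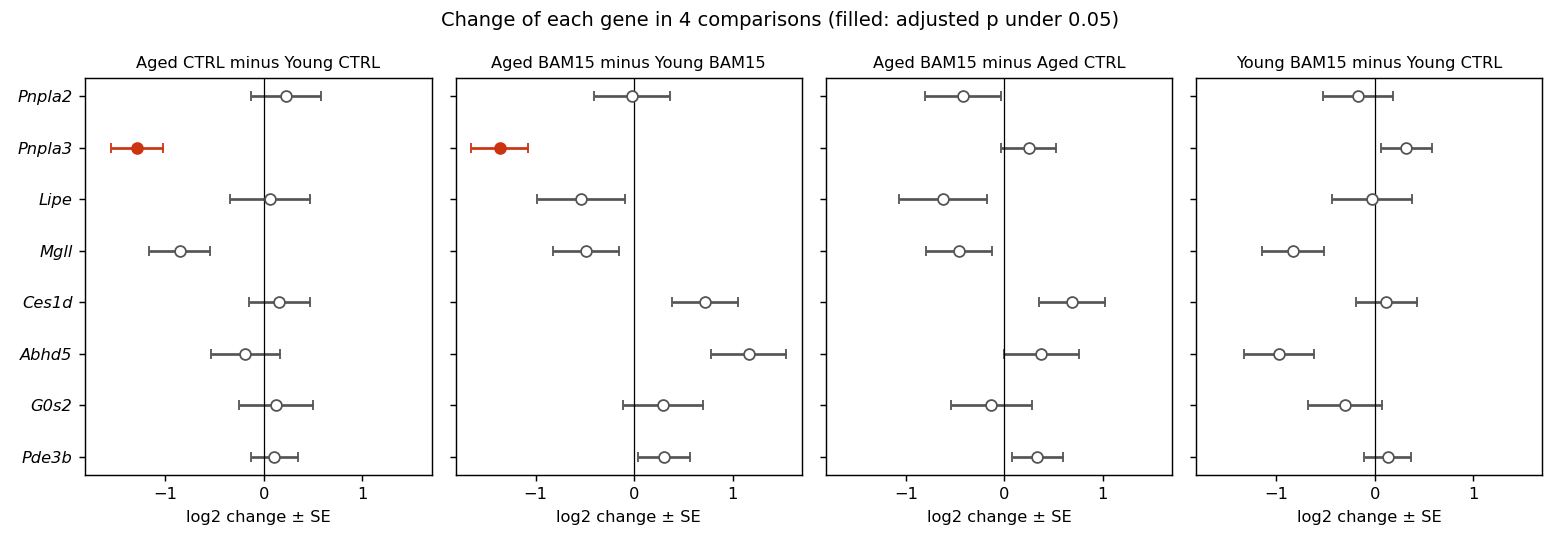
Log2 change of the 8 genes (horizontal axis, with ±1 SE) in the 2 age comparisons on the left and the 2 BAM15 comparisons on the right. Filled red points have an adjusted p under 0.05: only Pnpla3 does, at -1.29 in controls and -1.37 in treated mice.

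Abhd5, the coactivator of ATGL, ran from 108 to 378 CPM in Young CTRL with a median of 170 (mean 184 ± 92.7, SD, n = 7) and from 56.8 to 137 in Young BAM15 (93.7 ± 31.6, n = 6). Aged CTRL ran from 112 to 257 (162 ± 52.3, n = 6), and the 5 Aged BAM15 libraries held 119, 266, 115, 91.8 and 456 CPM (210 ± 154). Young BAM15 was the lowest group by mean, and all 6 of its libraries lay under the Young CTRL median, with overlap of the ranges. The change in young mice was -0.97 ± 0.36 (log2, SE, adjusted p = 0.274), and in old mice it was 0.37 ± 0.38 (adjusted p = 0.817). The difference between these 2 BAM15 effects was 1.35 ± 0.52 with an adjusted p of 0.899. With age, Abhd5 had a change of -0.19 ± 0.35 in controls (adjusted p = 0.966) and of 1.16 ± 0.38 in treated mice (adjusted p = 0.169), so no comparison passed the test.

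The high Abhd5 values belonged to the low mt-Rnr2 libraries. These 4 held 257 to 456 CPM, and the other 20 held 56.8 to 211, with no overlap and a ratio of medians of 2.73. The same 2 sets did not overlap for 15.7% of all genes, with the 4 libraries higher for 6.91%. Lipe had a ratio of medians of 0.219 between the same sets, Mgll of 0.41, Pnpla2 of 0.518, Pnpla3 of 0.639, G0s2 of 0.671, Pde3b of 1.24 and Ces1d of 1.92, all with overlap. Without the 4 libraries the Abhd5 change with BAM15 was -0.71 ± 0.22 in young mice (adjusted p = 0.119) and -0.39 ± 0.27 in old mice (adjusted p = 0.622), where the sign had been positive. The difference between the BAM15 effects became 0.32 ± 0.34, and the age change in treated mice became 0.23 ± 0.26. In limma-voom, which gives weights to libraries, the Abhd5 change was -0.61 ± 0.20 with BAM15 in young mice, -0.26 ± 0.24 with BAM15 in old mice and 0.30 ± 0.23 with age in treated mice. Leaving out Aged BAM15 5 alone took the BAM15 change in old mice to -0.13 ± 0.36 and the age change in treated mice to 0.66 ± 0.35.

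**Figure D3:**
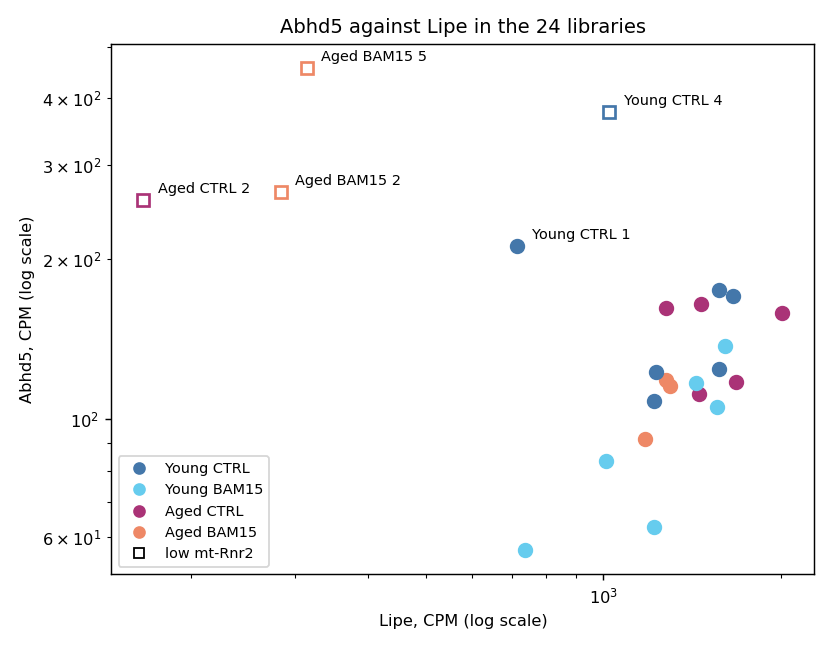
Abhd5 against Lipe in the 24 libraries, both in CPM on log axes, coloured by group. White squares are the low mt-Rnr2 libraries, which lie at 257 to 456 CPM of Abhd5, above the 56.8 to 211 of all other libraries.

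G0s2, the inhibitor of ATGL, gave no called change and small differences between group means. It ran from 362 to 817 CPM in Young CTRL (mean 573 ± 168, SD, n = 7), from 218 to 855 in Young BAM15 (466.2 ± 211, n = 6) and from 161 to 1102 in Aged CTRL (624.9 ± 311, n = 6). The Aged BAM15 libraries held 427, 230, 1267, 465 and 461 CPM (570 ± 401). Aged BAM15 3 alone stood above 1250 CPM, and leaving it out changed the age change in treated mice from 0.29 ± 0.41 to -0.24 ± 0.39 (log2, SE). The other changes were 0.12 ± 0.38 with age in controls, -0.30 ± 0.38 with BAM15 in young mice and -0.13 ± 0.41 with BAM15 in old mice.

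Pde3b, the cAMP-degrading enzyme through which insulin restrains lipolysis, varied least among the 8 genes by SE in the fit to all 24 libraries. That did not hold without the low mt-Rnr2 libraries, where its SE for age in controls was 0.26, against 0.22 for Abhd5 and 0.23 for Lipe. It ran from 142 to 368 CPM in Young CTRL (mean 237 ± 72.9, SD, n = 7), from 186 to 350 in Young BAM15 (260 ± 61.9, n = 6) and from 167 to 367 in Aged CTRL (255 ± 92.8, n = 6). The Aged BAM15 libraries held 247, 413, 254, 344 and 350 CPM (321 ± 70.4). The groups overlapped in every comparison. The changes were 0.10 ± 0.24 with age in controls, 0.30 ± 0.26 with age in treated mice, 0.13 ± 0.24 with BAM15 in young mice and 0.33 ± 0.26 with BAM15 in old mice, with adjusted p of 0.548 to 0.974. The ±2 SE interval for BAM15 in young mice was -0.35 to 0.61.

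For the BAM15 comparisons as a whole, 0 of the 8 genes were called at either age, against 0 of 15939 genes, or 0%, over the table. The BAM15 and CTRL libraries overlapped for all 8 genes at both ages, where 0.709% of all genes did not in old mice (0.289% lower with BAM15) and 1.19% did not in young mice (0.646% lower). At an unadjusted p under 0.05, 0 of the 8 genes in old mice stood against 9.1% of all genes, and 2 of the 8 in young mice, Mgll and Abhd5, against 13.1%. DESeq2 called 105 genes in old and 161 in young mice and limma-voom 964 and 679, and in both tools 0 of the 8 genes were among them. The test of whether the BAM15 effect differed with age called 0 genes, 0% of those tested, with 5.08% of all genes and 1 of the 8, Abhd5, at an unadjusted p under 0.05. DESeq2 called 2 genes there and limma-voom 0. For age, the share of all genes at an unadjusted p under 0.05 was 8.43% in controls and 16.4% in treated mice, against 2 of the 8 genes (Pnpla3 and Mgll) and 3 of the 8 (Pnpla3, Ces1d and Abhd5). The median change of the 8 genes was 0.08 and 0.13 with age in controls and treated mice and 0.06 and -0.10 with BAM15 in old and young mice, where all genes had medians of -0.04, -0.10, 0.02 and 0.03.

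The balance of these proteins' transcripts was followed as log2 ratios within a library, which do not depend on its total. The inhibitor over its enzyme, G0s2 to Pnpla2, averaged -1.22 ± 0.60 in Young CTRL (SD, n = 7), -1.46 ± 0.78 in Young BAM15 (n = 6), -1.41 ± 0.32 in Aged CTRL (n = 6) and -1.23 ± 0.68 in Aged BAM15 (n = 5). The coactivator over the inhibitor, Abhd5 to G0s2, averaged -1.71 ± 0.82, -2.27 ± 0.77, -1.80 ± 1.26 and -1.49 ± 1.56 in the same order. Lipe to Pnpla2 averaged -0.06 ± 0.59, 0.04 ± 0.16, -0.42 ± 0.62 and -0.69 ± 0.61. None of the 12 comparisons of these ratios passed a two-sided exact permutation test after adjustment over the 12. The lowest value was for Lipe to Pnpla2 in Aged BAM15 minus Young BAM15, -0.72 ± 0.28 (exact permutation p = 0.0173, adjusted p = 0.208), and the other 11 had adjusted p of 0.831 to 0.95. The smallest p that the design allows is 0.000583 for 6 against 7 mice and 0.00216 for 5 against 6. The Lipe to Pnpla2 ratio lay between -1.42 and -1.17 in the 4 low mt-Rnr2 libraries and was -0.33 ± 0.24 for that comparison without them (adjusted p = 0.481).

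**Figure D4:**
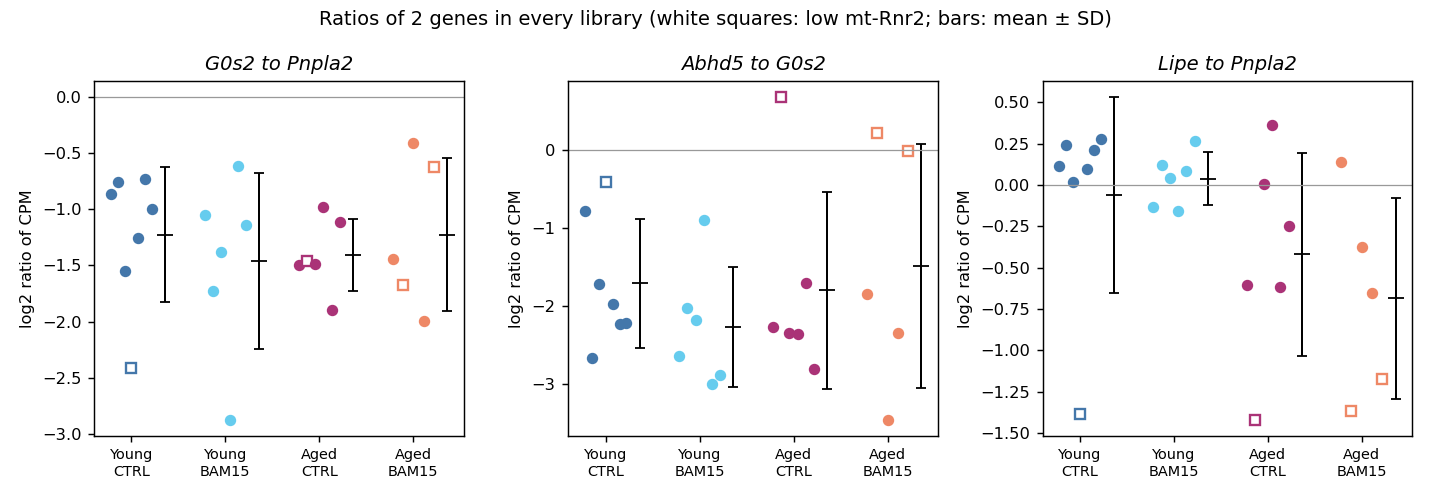
Log2 ratios of G0s2 to Pnpla2, Abhd5 to G0s2 and Lipe to Pnpla2 in each library by group, with the mean ± SD as bars. The low mt-Rnr2 libraries (white squares) have the 4 lowest Lipe to Pnpla2 ratios, at -1.42 to -1.17.

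How the 8 genes varied together between mice of the same group was measured over the 20 libraries without low mt-Rnr2, as correlations of deviations from the group mean of log2 CPM. Of the 28 pairs of genes, 25 had a positive Pearson's r, the median r was 0.298, and 8 pairs had an adjusted p under 0.05 over 44 relations (permutation within groups, 100000 resamples). The share over pairs of all genes was not computed. These counts therefore do not show whether the 8 genes vary together more than other genes do. Pnpla2 and Lipe, the enzymes of consecutive steps, had r = 0.80 (permutation p = 0.00024, adjusted p = 0.00151) and Spearman's rho = 0.73 (permutation p = 0.00134, adjusted p = 0.00842), and r was 0.60 without Young BAM15 5 and Young CTRL 1, the 2 libraries farthest from the median. Mgll and Abhd5 had r = 0.84 (permutation p = 0.00011, adjusted p = 0.000968) and rho = 0.81 (permutation p = 0.00066, adjusted p = 0.00484), with r = 0.79 without the 2 farthest libraries. Pnpla2 and Pde3b had r = 0.77 (permutation p = 0.00024, adjusted p = 0.00151) and rho = 0.75 (permutation p = 0.00056, adjusted p = 0.00484). Ces1d went with Pnpla2 at r = 0.79 (permutation p = 0.0001, adjusted p = 0.000968) and rho = 0.77 (permutation p = 0.00045, adjusted p = 0.00484), and with G0s2 at r = 0.76 (permutation p = 0.00116, adjusted p = 0.00567) and rho = 0.73 (permutation p = 0.00182, adjusted p = 0.01). Without the 2 libraries farthest from the median these last 3 values of r were 0.73, 0.76 and 0.64. Most of these values depended on leaving out the low mt-Rnr2 libraries. Over all 24 libraries r was 0.81 for Pnpla2 and Lipe, -0.05 for Mgll and Abhd5 and 0.28 for Pnpla2 and Pde3b. For Ces1d it was 0.33 with Pnpla2 and 0.30 with G0s2. The other pairs that passed were Lipe with Ces1d, Lipe with Pde3b and Ces1d with Pde3b, at r = 0.63, 0.62 and 0.56. Over all 24 libraries these had -0.09, 0.02 and 0.50.

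No pair with Pnpla3 was among these 8. Its r with the other 7 genes ran from -0.14 with Abhd5 to 0.43 with Lipe, and none passed (permutation, lowest adjusted p = 0.153). Against the adipocyte marker level of the library, r was 0.88 for Lipe (permutation p = 2e-05, adjusted p = 0.000293, rho = 0.84 with permutation p = 0.00011), 0.84 for Pnpla2 (permutation p = 2e-05, adjusted p = 0.000293, rho = 0.80 with permutation p = 0.00022) and 0.78 for Pde3b (permutation p = 1e-05, the smallest these resamples can give, adjusted p = 0.000293, rho = 0.83 with permutation p = 1e-05). Without Young BAM15 1 and Young CTRL 1, the 2 libraries farthest from the median marker level, these were 0.81, 0.76 and 0.71. Over all 24 libraries r with the adipocyte markers was 0.30 for Lipe, 0.57 for Pnpla2 and 0.73 for Pde3b. For Pnpla3 r was 0.36 (permutation p = 0.0836, adjusted p = 0.194) and rho 0.38 (permutation p = 0.121), and r was 0.08 without those 2 libraries. G0s2 had the same pattern, with r = 0.46 (permutation p = 0.0426, adjusted p = 0.134) and 0.08 without them. Mgll and Abhd5 had r of 0.26 (adjusted p = 0.512) and 0.43 (adjusted p = 0.257, permutation) with the markers, and 0.81 and 0.82 without those 2 libraries. Over all 24 libraries they had 0.18 and 0.40. Ces1d had r = 0.67 with the markers (permutation p = 0.00034, adjusted p = 0.00187), 0.44 without those 2 libraries and 0.67 over all 24. Lipe was lower where B cell markers were higher, with r = -0.61 (permutation p = 0.0111, adjusted p = 0.04), rho = -0.57 (permutation p = 0.00856) and r = -0.64 without the 2 farthest libraries. This r was -0.31 over all 24 libraries.

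**Figure D5:**
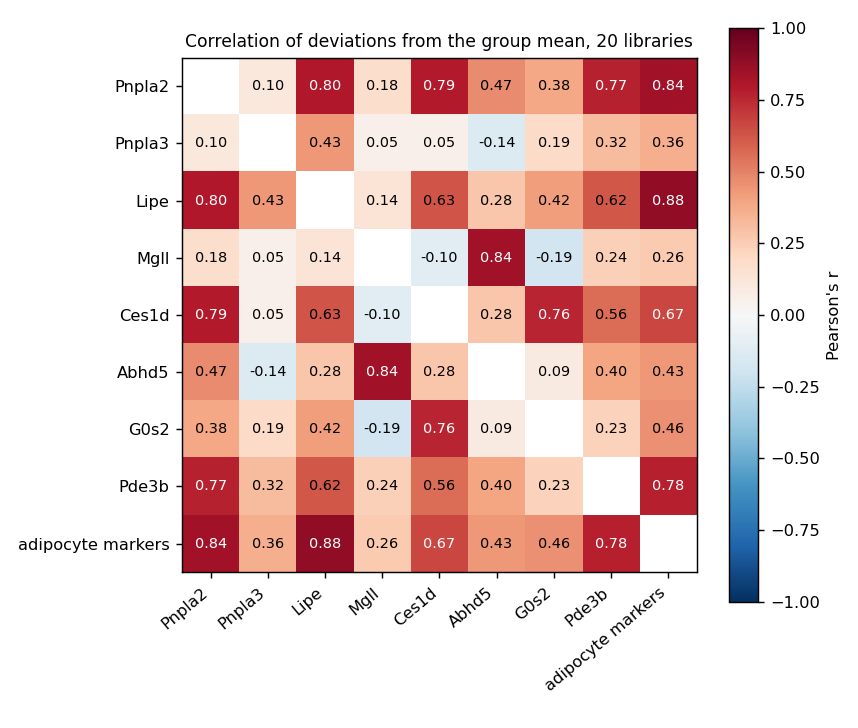
Pearson's r between the 8 genes and the adipocyte marker level over 20 libraries, from deviations from the group mean of log2 CPM; red is positive and blue negative. Pnpla2, Lipe, Pde3b and Ces1d form a block with the markers (0.56 to 0.88 among these 5), Mgll pairs with Abhd5 at 0.84, and the Pnpla3 row holds values of -0.14 to 0.43. Over all 24 libraries, not drawn here, r was -0.05 for Mgll with Abhd5 and 0.30 for Lipe with the markers. Within the block it then ran from -0.09 for Lipe with Ces1d to 0.81 for Pnpla2 with Lipe.

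The genes whose deviations were most like those of each of the 8 were taken from 10431 genes over all 24 libraries, as a description. The value of r over the 24 libraries is given before that over the 20 without low mt-Rnr2. Pnpla2 went with Gsn (0.93 and 0.88), H6pd (0.90 and 0.91) and Aoc3 (0.90 and 0.82), and Lipe with Dynlrb1 (0.97 and 0.80), Cobll1 (0.97 and 0.78) and Tspo (0.96 and 0.88). Abhd5 went with Fitm2 (0.95 and 0.85), which encodes a protein of lipid droplet formation, Gabarapl1 (0.94 and 0.92), which encodes an autophagosome protein, and Scamp1 (0.93 and 0.87). Mgll went with Ubqln1 (0.90 and 0.89), Dbi (0.89 and 0.89), which encodes the acyl-CoA binding protein, and Ctsd (0.85 and 0.78). Ces1d went with Por (0.92 and 0.88), Sqor (0.89 and 0.88) and Mettl7a1 (0.88 and 0.87). G0s2 went with Smim14 (0.88 and 0.77), the adenylyl cyclase gene Adcy3 (0.88 and 0.75) and the fatty acid receptor gene Ffar4 (0.87 and 0.77). Pde3b went with Ifi27l2a (0.83 and 0.86), Scn7a (0.81 and 0.86) and Gstz1 (0.80 and 0.81). The closest genes of Pnpla3 were less like it, with Thoc1 at 0.74 and 0.74, Fam217b at 0.67 and 0.78 and Tmtc3 at 0.63 and 0.66. These values share library and depth, and they carry no p.

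Around the 8 genes, 59 other genes of lipolysis were looked up: further lipases, droplet proteins, and the arms that stimulate and restrain the process. All 59 were tested and 0 were called in any of the 5 comparisons by edgeR. At an unadjusted p under 0.05 there were 8 of 59 (13.6%) with age in controls, 12 (20.3%) with age in treated mice, 9 (15.3%) with BAM15 in old mice, 12 (20.3%) with BAM15 in young mice and 3 (5.08%) for the difference of the BAM15 effects, beside 8.43, 16.4, 9.1, 13.1 and 5.08% of all genes. Their median changes were -0.01, 0.12, 0.02, -0.13 and 0.13 in that order, where all genes had -0.04, -0.10, 0.02, 0.03 and -0.04. Of the 12 cofactors and droplet genes, Abhd5 and G0s2 included, 11 had a negative change with BAM15 in young mice, with a median of -0.53, where 47.3% of all genes were negative. The same 12 had 6, 4 and 8 negative changes with age in controls, age in treated mice and BAM15 in old mice. In the young BAM15 comparison adipocyte markers had a median of -0.32 (10 of 14 negative), B cell markers 2.41 (10 of 10 positive) and T cell markers 1.90 (8 of 8 positive). Plin1, Cidec and Fabp4 belong both to the 12 and to the adipocyte markers. With the B cell level as a covariate the change went from -0.26 to 0.18 for Plin1 and from -0.80 to -0.39 for Cidec. The part of these cells in the changes of the 12 as a set was not tested.

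Adrb3, the adipocyte beta-adrenergic receptor that starts lipolysis, had a mean of 144 ± 60.6 CPM in Young CTRL (SD, n = 7), 298 ± 94.1 in Young BAM15 (n = 6), 57.9 ± 48.7 in Aged CTRL (n = 6) and 140 ± 66 in Aged BAM15 (n = 5). The lowest Young BAM15 library, at 227 CPM, lay under the highest Young CTRL library at 243. The changes were -1.31 ± 0.44 with age in controls (log2, SE, adjusted p = 0.297), -1.08 ± 0.48 with age in treated mice (adjusted p = 0.272), 1.05 ± 0.43 with BAM15 in young mice (adjusted p = 0.311) and 1.28 ± 0.47 with BAM15 in old mice (adjusted p = 0.403). limma-voom called the last of these at 1.60 ± 0.41 (adjusted p = 0.0237), and edgeR and DESeq2 did not.

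Among the droplet proteins, Hilpda, which encodes another inhibitor of ATGL, ran from 67.8 to 426 CPM in Young CTRL (mean 148 ± 126, SD, n = 7) and from 29.7 to 49.0 in Young BAM15 (37.0 ± 8.72, n = 6). The 2 groups did not overlap, as for 1.19% of all genes in this comparison. The change was -2.003 ± 0.56 (log2, SE), which edgeR did not call (adjusted p = 0.188), while DESeq2 (adjusted p = 0.0199) and limma-voom (adjusted p = 0.0333) did. Without Young CTRL 1 it was -1.46. In old mice Hilpda had a change of -1.58 ± 0.60 (adjusted p = 0.413), which was -1.03 without Aged CTRL 5 and -0.61 ± 0.46 in limma-voom. Plin5, a droplet protein that binds ABHD5, had 19.5 ± 6.09 CPM in Young CTRL (n = 7) and 54.1 ± 32.7 in Aged CTRL (n = 6), a change of 1.47 ± 0.35 (adjusted p = 0.0896). DESeq2 called it (adjusted p = 0.00763), as did edgeR without the low mt-Rnr2 libraries (1.67 ± 0.32, adjusted p = 0.0216), without Aged CTRL 4 (1.65 ± 0.34, adjusted p = 0.0352) and with the adipocyte marker level as a covariate (1.55 ± 0.35, adjusted p = 0.046). Plin5 stayed uncalled in 12 of 13 fits that left out 1 library and in 8 of the 11 other alternatives. Its change was as low as 1.16 in both sets, in the former without Aged CTRL 6. Cidea, a droplet protein of brown and beige fat, had a change of -1.61 ± 0.53 with age in controls (adjusted p = 0.267).

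Cidec, a protein of large lipid droplets, had a change of -0.80 ± 0.29 with BAM15 in young mice (log2, SE, adjusted p = 0.274) and of -0.68 ± 0.32 in old mice (adjusted p = 0.525), with 0.28 ± 0.29 and 0.40 ± 0.31 for age in controls and treated mice. With the B cell level as a covariate the change in young mice was -0.39 ± 0.29 and that with age in treated mice 0.20 ± 0.28, and without Young CTRL 1 and 7 the age change in controls was 0.07 ± 0.29. Plin1, the coat protein that holds ABHD5, had a change of -0.26 ± 0.31 and 0.34 ± 0.33 with BAM15 and of -0.12 ± 0.31 and 0.48 ± 0.33 with age, and its positive values in Aged BAM15 comparisons took the other sign without the low mt-Rnr2 libraries (-0.30 ± 0.29 and -0.20 ± 0.28). Prkar2b, the regulatory subunit of the cAMP-dependent kinase in adipocytes, had a change of -0.68 ± 0.26 with BAM15 in young mice (adjusted p = 0.287) and of -0.39 ± 0.29 in old mice (adjusted p = 0.72). In young mice it was -0.27 ± 0.25 with the B cell level and -0.39 ± 0.15 with the adipocyte level as a covariate, and in old mice -0.63 ± 0.35 without the low mt-Rnr2 libraries and -0.23 ± 0.24 with the B cell level as a covariate.

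In the signalling arms, Gnas, which encodes the stimulatory G protein subunit, had a change of 1.57 ± 0.45 with age in treated mice (log2, SE, adjusted p = 0.128). DESeq2 called it (adjusted p = 0.0218), and without the low mt-Rnr2 libraries the change was 0.20 ± 0.21, and in limma-voom 0.33 ± 0.21. Pde4b, another cAMP phosphodiesterase, had a change of -1.39 ± 0.45 in the same comparison (adjusted p = 0.168), from 84.9 ± 24.7 CPM in Young BAM15 (n = 6) to 32.5 ± 12 in Aged BAM15 (n = 5), without overlap, as for 2.06% of all genes in this comparison (0.885% lower). B cell markers (median -1.99, 0 of 10 positive) and T cell markers (-1.38, 0 of 8) were also lower there. With the B cell level as a covariate the Pde4b change was -1.22 ± 0.47 (adjusted p = 0.27), and the part of T cells was not tested. Ptger3, which encodes an inhibitory prostaglandin receptor, had a change of -1.09 ± 0.36 with BAM15 in young mice (adjusted p = 0.253) and was called by limma-voom alone (-1.14 ± 0.29, adjusted p = 0.0356). With the B cell level as a covariate it was -0.51 ± 0.33. For the difference between the BAM15 effects, the adenylyl cyclase genes Adcy9 and Adcy3 had the largest values of the 59, -1.07 ± 0.98 and -0.99 ± 0.44, both with an adjusted p of 0.899. Their values were -0.47 ± 0.48 and -0.83 ± 0.34 without the low mt-Rnr2 libraries.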

How the data were processed

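The authors deposited raw counts per Ensembl gene for 24 libraries. They also deposited a signal table (those counts over a size factor, 1 for each library), used here for gene symbols. The submitters' processing notes name R 3.4.3, DESeq2 1.18.1 and GRCm38, without their roles. The aligner is not given in the sources used here, nor are the counting program, the annotation or the strand setting. Symbols came from that table for 14606 genes.

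A filter on low counts (filterByExpr) left 15939 genes and took out 1602, and TMM factors scaled the libraries. One robust model per gene, with the 4 groups as its term, was fitted to the 24 libraries in edgeR 4.0.16 (R 4.3.3) and tested by quasi-likelihood, with 20 residual degrees of freedom and a common coefficient of biological variation of 0.621. Benjamini-Hochberg adjustment ran over the 15939 genes. The SE of a log2 change was taken as its size over the root of the F statistic, and intervals are ±2 SE. CPM uses the total of the kept genes times the TMM factor, and log2 CPM a prior count of 2. Library totals of 8.62 to 21.9 M counts limit precision less than the spread between mice. The pipeline was tested on simulated data with known changes.

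Ratios were compared with two-sided exact permutation tests, and correlations with permutations within groups. DESeq2 1.42.0 and limma 3.58.1 (voom) were among the alternatives. Within groups, libraries were compared for duplicates, and the lowest chi-square per gene was 21.1 over 61 pairs. Replicate numbers name mice and do not pair them. The 8 genes, the 4 pathway lists (67 genes) and the marker lists (10) were chosen with earlier results of these data known. Of the other 59 pathway genes, Plin1, Cidec, Adrb3 and Prkar2b, any gene called, and in each comparison the 2 with the largest absolute change at a mean of at least 5 CPM were named, and for each of the 8 genes the 3 with the highest r among genes of at least 5 CPM that are not predicted genes. Promoter sequences are from RefSeq (GRCm38.p6).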

Additional observations from a re-analysis of the deposited data

Results flagged for a closer look

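In 6 of 44 groups of values tested, the highest or lowest mouse stood apart from the rest of its group by Dixon's criterion. Chance passes it in about 1 of 20 groups of normally distributed values. The genes were tested in CPM without logs, and the 44 groups share libraries, so that rate is only a rough guide here. Abhd5 was 378 CPM in Young CTRL 4, where the other 6 libraries held 108 to 211, and 257 CPM in Aged CTRL 2, where the other 5 held 112 to 164. Both are low mt-Rnr2 libraries. In the same 2 mice the log2 ratio of Lipe to Pnpla2 was -1.39 in Young CTRL 4 (others 0.02 to 0.28), and that of Abhd5 to G0s2 was 0.67 in Aged CTRL 2 (others -2.80 to -1.70). Mgll was 6599 CPM in Young CTRL 1 (others 2178 to 3996), the library in which keratinocyte markers summed to 2228 CPM. G0s2 was 1267 CPM in Aged BAM15 3 (others 230 to 465).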

How the results depend on the processing

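The Pnpla3 difference with age kept its sign in every alternative run, from -1.46 to -1.13 in controls and from -1.48 to -1.23 in treated mice. Besides the fits without 1 mouse, its call was lost in controls when the compared groups were fitted alone (-1.28, adjusted p = 0.188) and, in an alternative chosen after seeing the data, without Young CTRL 1 and 7 (-1.41, adjusted p = 0.063). With the replicate number as a block it was -1.32 (adjusted p = 0.185) in controls and -1.34 (adjusted p = 0.173) in treated mice. The numbers are only names: deviations of same-numbered libraries had a median correlation of -0.044 over 33 pairs against 0.0043 over 182 others, and 3 of 24 libraries matched their own number best. The cause of the lost calls was not tested.

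The number of genes called over the table moved widely. For age in controls, 33 became 179 with DESeq2, 147 with limma-voom, 18 with the compared groups alone, 5 with the replicate block, 79 without the low mt-Rnr2 libraries, 66 with the adipocyte covariate and 4 without Young CTRL 1 and 7, and it ran from 20 (without Aged CTRL 6) to 35 (without Young CTRL 4) when 1 mouse was left out. For age in treated mice, 68 became 370, 300, 17, 13 with the replicate block, 27 without the low mt-Rnr2 libraries, 45 with the adipocyte covariate and 27 with the B cell covariate, and ran from 14 (without Aged BAM15 5) to 121 (without Aged BAM15 1). For BAM15 in old mice, 0 became 105 with DESeq2 and 964 with limma-voom and ran to 67 without Aged BAM15 1. For BAM15 in young mice, 0 became 161, 679 and, with the adipocyte covariate, 1, and ran from 0 to 1 without 1 mouse. For the difference of the BAM15 effects DESeq2 called 2.

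Single-gene values were refitted 1727 times over all alternatives, fits without 1 mouse included, and 77 of these fits gave the other sign. The same value could be counted in more than 1 alternative. None of the reported values concerned was called, and the largest was 0.60. The values with the other sign follow by alternative. With limma-voom they were Pde3b -0.061 and Prkar2b 0.013 for age in controls, Pnpla2 0.35 and Plin1 -0.24 for age in treated mice, Pnpla3 -0.011, Abhd5 -0.26, G0s2 0.079 and Plin1 -0.33 for BAM15 in old mice, and Plin1 -0.24 for the difference of the BAM15 effects. With the replicate block they were Lipe -0.087 and G0s2 -0.043 for age in controls. Without the low mt-Rnr2 libraries they were Plin1 0.041 and Prkar2b 0.057 for age in controls, Pnpla2 0.34, Lipe 0.0059 and Plin1 -0.20 for age in treated mice, Abhd5 -0.39, G0s2 0.0066 and Plin1 -0.30 for BAM15 in old mice, Pnpla2 0.053 for BAM15 in young mice, and Ces1d -0.13 and Plin1 -0.24 for the difference. With the adipocyte covariate they were Prkar2b 0.13 for age in controls, Pnpla2 0.11 and Lipe 0.13 for BAM15 in young mice, and G0s2 -0.026, Pde3b -0.095 and Prkar2b -0.11 for the difference. With the B cell covariate they were G0s2 0.048 for BAM15 in old mice, Pnpla2 0.12, Lipe 0.27 and Plin1 0.18 for BAM15 in young mice, and Cidec -0.12 for the difference, and with the muscle covariate Pnpla3 0.10 for the difference. Without Young CTRL 1 and 7 they were Lipe -0.0719, Ces1d -0.039, G0s2 -0.0101 and Pde3b -0.065 for age in controls, Ces1d -0.079 and Pde3b -0.035 for BAM15 in young mice, and Pnpla3 0.044 for the difference. Among the ratios without the low mt-Rnr2 libraries, Abhd5 to G0s2 became -0.28 for age in treated mice and -0.25 for BAM15 in old mice, and Lipe to Pnpla2 became -0.12 for BAM15 in young mice.

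Leaving out 1 mouse at a time moved values across 0 as follows. For age in controls the ranges were -0.088 to 0.30 for Lipe, -0.37 to 0.091 for Abhd5, -0.11 to 0.32 for G0s2, -0.028 to 0.24 for Pde3b, -0.25 to 0.10 for Plin1 and -0.22 to 0.064 for Prkar2b. For age in treated mice they were -0.22 to 0.13 for Pnpla2 and -0.24 to 0.60 for G0s2. For BAM15 in old mice they were -0.13 to 0.56 for Abhd5 and -0.66 to 0.11 for G0s2. For BAM15 in young mice they were -0.33 to 0.070 for Pnpla2, -0.14 to 0.091 for Lipe, -0.11 to 0.30 for Ces1d and -0.0039 to 0.27 for Pde3b. For the difference they were -0.24 to 0.093 for Pnpla3, -0.36 to 0.46 for G0s2, -0.029 to 0.27 for Cidec and -0.047 to 0.73 for Adrb3. Ratios of G0s2 to Pnpla2 ran from -0.045 to 0.43 for age in treated mice, -0.025 to 0.37 for BAM15 in old and -0.44 to 0.043 for BAM15 in young mice, those of Abhd5 to G0s2 from -0.58 to 0.13 for age in controls and -0.11 to 0.80 for BAM15 in old mice, and Lipe to Pnpla2 from -0.12 to 0.15 for BAM15 in young mice. The adipocyte covariate was not run for Plin1, Cidec and Adrb3, which are in that marker list. With 5 to 7 mice a group and a coefficient of variation of 0.621, the spread between mice limits these comparisons more than sequencing depth.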
